A study of Rattus norvegicus with 2 samples.

Results

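The genes described here carry the thyrotropin-releasing hormone signal of the hypothalamus and the local action of thyroid hormone: Trh, Trhr, Dio2, Thra, Thrb and Crym. They were taken by name, as the spots other than controls whose deposited gene name was one of the 6, which gave 6 genes on 6 spots out of 26352 genes and other targets on the arrays. Each gene was read by 1 probe on 1 spot. RNA came from the whole hypothalamus of Wistar Kyoto (WKY) rats, a normotensive strain, aged 9 weeks and killed by ether followed by decapitation. The male group was 1 pool of RNA from 5 males and the female group 1 pool from 5 females, to which every animal gave 100 ng. Of either pool, 150 ng was labelled with the dye Cy3 and hybridised to 1 Agilent 1-colour array. Below, "in males" and "in females" stand for the male and the female pool. No treatment, transgene or gonadectomy is given for either group, and the stage of the oestrous cycle of the females is not given in the sources used here. With 1 array per pool there was no replicate of either sex, so no test was possible and every difference below describes these 2 pools. In such bulk RNA, fewer cells of a type and less RNA per cell cannot be told apart.

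Thyrotropin-releasing hormone is a tripeptide cut from the precursor encoded by Trh. Neurons of the paraventricular nucleus release it into the portal blood, and it drives the pituitary to secrete thyroid-stimulating hormone. The thyroid then releases mostly the prohormone thyroxine, which the type 2 deiodinase encoded by Dio2 converts to the active hormone triiodothyronine, in the hypothalamus mainly in tanycytes and astrocytes. Triiodothyronine binds the nuclear receptors encoded by Thra and Thrb, and through Thrb in particular it represses Trh, which closes the feedback loop. Crym encodes mu-crystallin, a protein of the cytosol that binds triiodothyronine. Trhr encodes the G protein-coupled receptor of the tripeptide, which is made by pituitary cells and also by neurons.

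The sequences of the probes are shown where they bear on what was read. Probes were 60 bases long, and their coordinates are those of the deposited files, build rn4. The Thra probe (NM_001017960) lies at chr10:87537328-87537387, plus strand, and the Thrb probe (NM_012672) at chr15:9282955-9283014, minus strand. They are shown whole because these receptor genes are close relatives, and capitals mark the bases that are the same in both when they are set side by side without gaps.
Thra: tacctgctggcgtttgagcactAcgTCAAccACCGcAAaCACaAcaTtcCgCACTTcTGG
Thrb: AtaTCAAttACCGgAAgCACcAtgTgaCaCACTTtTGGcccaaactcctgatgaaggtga
Over the 38 aligned bases 25 were identical, or 65.8%. The deposited annotation of the Thra probe lists transcripts of both the alpha 1 and the alpha 2 variant, so its signal does not tell these apart. For the Thrb probe it lists 2 RefSeq transcripts of Thrb.

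The Dio2 probe (NM_031720) lies at chr6:114308225-114308284, minus strand. It is shown because it ends in TGA (in capitals), a triplet that in selenoprotein messages such as this one can be read as stop or as selenocysteine. Which reading applies at this site was not examined.
Dio2: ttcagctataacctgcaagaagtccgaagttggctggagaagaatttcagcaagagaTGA
The probes of Crym and Trhr both hold the letters AATAAA, the usual signal for polyadenylation, searched on the printed strand only. These letters occur in 8.39% of the 30367 probes, and a match is no more than a description of the window. A stretch of 30 bases around them is shown for each, with the letters in capitals.
Crym: gtgtgtctctgaAATAAAtcatttccagtt
Trhr: gaagggaAATAAAgtatttcctgattattg
The Trhr probe (NM_013047) lies at chr7:80095310-80095369, plus strand, and the Trh probe (NM_013046) at chr4:126425344-126425403, minus strand. The deposited files list the Crym probe (NM_053955) as unmapped.

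A spot's level was taken as log2 processed intensity minus log2 of the 75th percentile of the intensities on its array, so a level of 0 is the brightness of the 75th percentile spot. Brightness also depends on the probe, so levels of different genes are not read here as amounts of RNA, and differences are taken between the pools only. The words bright and dim, and the summed signals of marker lists below, describe probe brightness. A brighter probe weighs more in such a sum. Differences are female minus male on the log2 scale. The technical SD given with a difference is the spread between repeated spots of the same probe at a like level, and it leaves out the spread between rats, labelling reactions and hybridisations. A second error, that of the scanner software for 1 spot, was at most 10.2% of the intensity for the 5 members measured in both pools and gave a difference an error of 0.20 to 0.21 log2.

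Of the 5 members well above background in both pools, Trh, Dio2, Thra and Crym differed between the pools by 1.16-fold or less. The receptor gene Trhr was 1.73-fold higher in females, from a spot in a part of the slide where repeated spots often disagreed. Thrb was well above background in neither pool. Of the 5 measured members 1 was at least 1.5-fold apart, and over all 20677 genes measured in both pools 2.4% were. At 2-fold the counts were 0 of 5 and 0.846% of all measured genes. With 5 genes, this count says nothing about the members as a group.

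**Figure D1:**
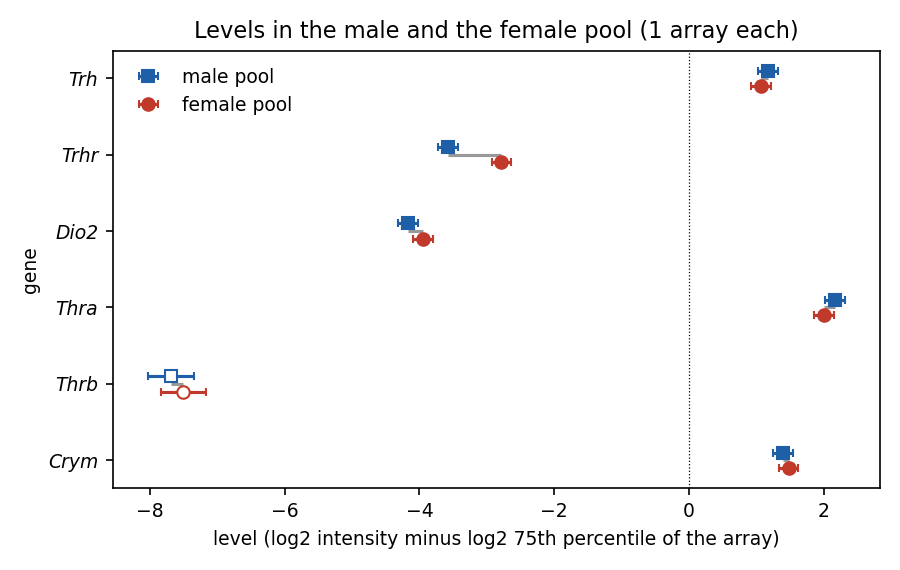
Level of each member in males (squares) and in females (circles), in log2 relative to the 75th percentile of the array (dotted line), with bars for the scanner software's error of 1 spot. Trhr is the member whose pools lie furthest apart, 0.79 log2, and open symbols mark Thrb, which was not well above background.

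The hormone gene Trh was bright in both pools. Its processed intensity was 8482 in males and 6152 in females, and the levels after scaling were 1.17 and 1.06. The difference of -0.11 log2 (technical SD 0.048) is 1.08-fold higher in males. It was 2.24 times the technical SD but 0.52 times the scanner software's error, and 43.7% of all measured genes had a larger absolute difference. The Trh message was therefore close to even between these pools, and its spot was in row 164 of the uneven rows described below.

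The receptor gene Trhr had a processed intensity of 316 in males and 428 in females. Its levels were -3.58 and -2.78, a difference of 0.79 log2 (technical SD 0.094), higher in females. That is 8.46 times the technical SD and 3.87 times the scanner software's error. Of the 1000 genes with 1 spot nearest to it in level, 0.6% had a larger absolute difference. The deposited value table, scaled to 100 at the 75th percentile of its array, gave 8.38 for the male and 14.5 for the female pool.

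The spot of Trhr lay where repeated spots of other probes disagreed more often. Repeated spots were called far where they departed from the median difference of their own probe by over 4 robust SD. The slide was divided into blocks of 20 rows, and the blocks where over 2% of the repeated spots were far are called uneven rows below. These were 7 of 27 blocks and held 24.8% of the spots. Trhr lay in row 439, in a block with 27 far spots of 475, or 5.68%, against 0.461% outside the uneven rows. In that block 65 of the 664 genes with 1 spot were at least 1.5-fold apart, or 9.79%, and the repeated spots spread with an SD of 0.14 log2, of which the Trhr difference is 5.75 times. The 105 spots within 5 rows and 5 columns of it had a median difference of 0.0044 log2. Of these neighbours 5.71% were at least 1.5-fold apart, against 0% to 1.96% around the spots of the other members. The part of slide position in the Trhr difference was not tested beyond these values, since the gene had no other spot.

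**Figure D2:**
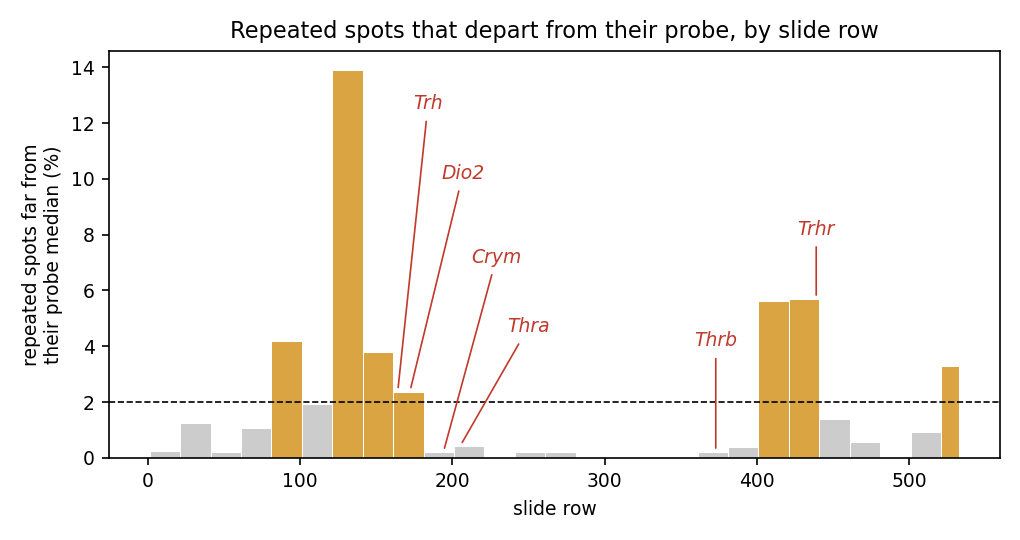
Share of repeated spots far from the median of their probe (percent) in blocks of 20 slide rows, with the block of each member's spot marked. Filled ochre bars above the dashed line at 2% are the uneven rows, which hold the spots of Trh and Dio2 (2.37% far) and Trhr (5.68% far).

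The deiodinase gene Dio2 was dim, with a processed intensity of 210.1 in males and 191 in females. After scaling its levels were -4.16 and -3.95. The difference of 0.22 log2 (technical SD 0.10), 1.16-fold higher in females, was 2.15 times the technical SD and 1.05 times the scanner software's error. Of genes with 1 spot at a like level, 21.4% differed by more. Its spot, in row 172, lay in the same block of rows as that of Trh, in row 164, where 2.37% of repeated spots were far, just over the limit, while a block just under it, from row 101 to 120, had 1.93%. Of the genes with 1 spot in the block of Trh and Dio2, 3.16% were at least 1.5-fold apart. The Dio2 difference was therefore not beyond what other genes of its brightness showed.

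The receptor gene Thra was bright in both pools, with a processed intensity of 16920 in males and 11794 in females. Its levels were 2.17 and 2.00. The difference of -0.16 log2 (technical SD 0.052), 1.12-fold higher in males, was 3.18 times the technical SD and 0.80 times the scanner software's error. Of genes with 1 spot at a like level, 11.1% differed by more. The spot lay outside the uneven rows, at the edge of the array in column 1, and the 54 spots around it had a median difference of 0.075 log2. Relative to those neighbours the Thra difference was -0.24 log2.

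The receptor gene Thrb gave processed intensities of 18.2 in males and 16.3 in females, and neither was well above background. The unfiltered levels were -7.69 and -7.50, with a scanner error of 23.6% and 23.2% of the intensity. No fold is given for Thrb, since both values are at the limit of what the arrays measured, and the deposited value table does not list the spot. With 1 dim probe, a difference in Thrb was not detectable here, and the value does not show that the receptor is absent.

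The binding protein gene Crym was bright and even. Its processed intensity was 9889 in males and 8189 in females, and the levels after scaling were 1.39 and 1.48. The difference of 0.084 log2 (technical SD 0.059) is 1.06-fold higher in females. It was 1.44 times the technical SD, and 53.1% of all measured genes had a larger absolute difference. The spot lay outside the uneven rows, in a block with 1 far spot of 496.

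**Figure D3:**
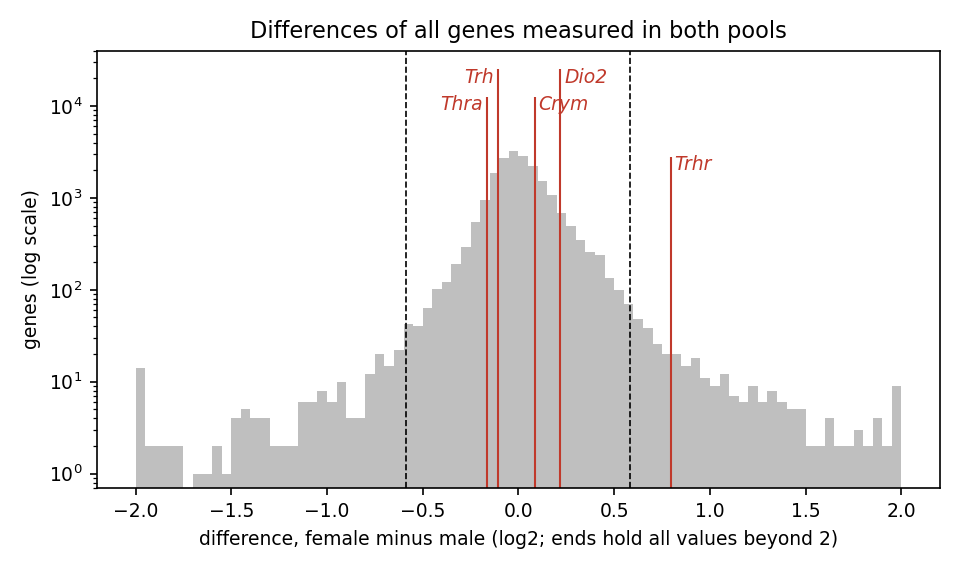
Number of genes (log scale) by difference, female minus male (log2), for the 20677 genes measured in both pools, with red lines at the 5 measured members and dashed lines at 1.5-fold. Trh, Thra, Crym and Dio2 fall inside the bulk of the distribution, and Trhr falls past 1.5-fold on the female side.

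The rest of the thyroid axis was read from a list of 62 genes that includes the members. A probe was matched for 60 of them, all but Serpina7 and Flywch2, and 59, all of these but Thrb, were measured in both pools, 31 higher in females and 28 higher in males. Their median difference was 0.014 log2, beside 0.00017 over all measured genes. At 1.5-fold, 5 were higher in females and 3 in males, against 1.56% and 0.842% of all measured genes in those directions. With spike-in scaling 20 of the 59 were higher in females and 39 in males, with a median of -0.062 log2, and 6 were 1.5-fold apart. With median scaling these values were 26, 33, -0.025 and 7. Nearest the limit among the 8 as reported were Pam, at 1.53-fold, and Ncoa2, at 1.56-fold. Of these 8, Trhr, Pam, Dio1, Ttr, Ncoa2, Cga and Trhr2 had every spot in the uneven rows, and Tshb did not. Of the 19 measured genes of the list with every spot in the uneven rows 7 were at least 1.5-fold apart, or 36.8%, beside 4.96% of all genes with 1 spot there. Of the 40 with a spot outside them 1 was, or 2.5%, beside 2.01% of all genes with 1 spot outside. The part of slide position in these 7 differences was not tested.

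**Figure D4:**
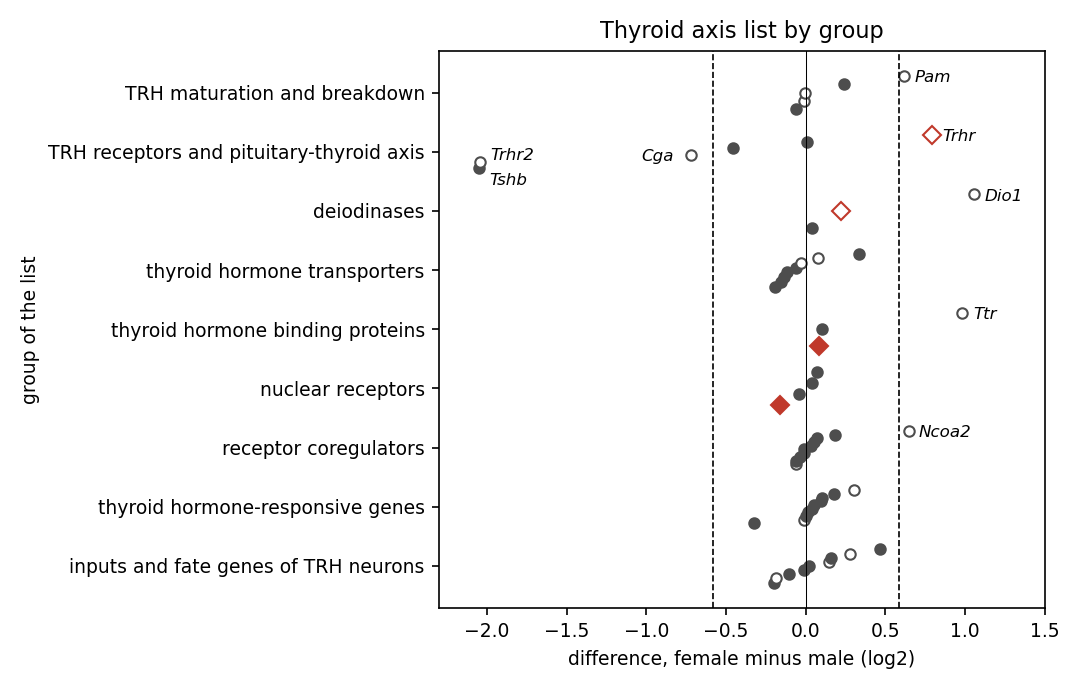
Difference, female minus male (log2), of the measured genes of the thyroid axis list by group, with dashed lines at 1.5-fold. Trh stands in none of the groups and is not drawn. Red diamonds are members, open symbols are genes with every spot in the uneven rows, and of the 8 genes past the dashed lines only Tshb is filled.

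The other receptor gene of the tripeptide had the opposite sign to Trhr. Trhr2, which encodes a second receptor found in rodent brain, was at -3.93 in males and -5.97 in females, a difference of -2.04 log2 (technical SD 0.15), 4.12-fold higher in males. Like Trhr it was read by 1 spot in the uneven rows. Neither receptor gene had another spot to set beside its value.

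Of the enzymes that make and break the tripeptide, 5 of 5 were measured. Of these 1 was at least 1.5-fold apart, or 20%, beside 2.4% of all measured genes. With 5 genes, this share says nothing about the group. Pam, which amidates the C-terminus of the peptide, was at -0.61 in males and 0.0051 in females, 1.53-fold higher in females (technical SD 0.062 log2), from a spot in the uneven rows. Trhde, the ectoenzyme that degrades the peptide outside cells, differed by 0.24 log2 (technical SD 0.10), and the precursor-cutting convertase gene Pcsk2 by -0.059 (technical SD 0.056).

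The subunit genes of thyroid-stimulating hormone, a product of the pituitary, were both lower in females. Tshb, the gene of its beta subunit, was at -1.40 in males and -3.45 in females, a difference of -2.05 log2 (technical SD 0.076), from a spot outside the uneven rows. Cga, which encodes the alpha subunit shared with the gonadotropins, was at 1.15 in males and 0.43 in females, 1.64-fold higher in males, from a spot in the uneven rows. Over the list of 7 anterior pituitary markers, 5 were measured, 4 of them lower in females, and their summed signal was 2.92 times the 75th percentile in males and 1.75 times in females. Most of that sum was Tshb and Cga themselves, and the other 3 measured markers summed to 0.319 times in males and 0.308 times in females, 2 of them lower and 1 higher in females. The sum of these 3 was mostly Lhb, which differed by -0.022 log2 (technical SD 0.068). Pou1f1 differed by -0.46 (technical SD 0.15) and Fshb by 0.18 (technical SD 0.26). Prl was well above background in females only, and Gh1 in neither. The part of pituitary tissue in the Trhr, Tshb and Cga values was not tested.

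Among the deiodinases all 3 were measured and all 3 were higher in females. Dio1, the type 1 enzyme best known from liver and kidney, was at -6.65 in males and -5.59 in females, 2.08-fold higher in females with a technical SD of 0.26 log2, from a dim spot in the uneven rows. Dio3, which inactivates thyroid hormone, differed by 0.042 log2 (technical SD 0.15). Tanycytes, where Dio2 is concentrated, were followed with a list of 9 markers, all measured, 5 higher in females and 4 higher in males. Their summed signal was 5.88 times the 75th percentile in males and 6.59 times in females, most of it from Cd59, which many other cells also express. Their median difference was 0.16 log2, with a range from -0.31 for Rax to 0.54 for Col25a1. The 7 astrocyte markers had a median of -0.028 log2. The part of these cell types in the Dio2 value was not tested.

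None of the 8 measured transporters of thyroid hormone was 1.5-fold apart, and 6 of 8 were lower in females, with a median of -0.091 log2. Slco4a1, which encodes an organic anion transporter, differed by 0.34 log2 (technical SD 0.078), and Slco1c1, which encodes the thyroxine transporter of the blood-brain barrier, by -0.16 (technical SD 0.059).

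Of the binding proteins other than Crym, Ttr and Alb were measured. Ttr, which encodes the thyroxine carrier transthyretin and is made by the choroid plexus, was at 0.11 in males and 1.09 in females, 1.98-fold higher in females (technical SD 0.075 log2), from a spot in the uneven rows. The 5 choroid plexus markers, Ttr among them, had a summed signal of 1.35 times the 75th percentile in males and 2.42 times in females. Most of that sum was Ttr itself, and the other 4 summed to 0.274 times in males and 0.294 times in females, 2 of them higher and 2 lower in females. The sum of these 4 was mostly Folr1 and hides a large difference in a dim gene. Kcnj13 was 4.67-fold higher in females (technical SD 0.26 log2), from a spot in the uneven rows. Aqp1 differed by 0.20 log2, and Folr1 and Clic6 by -0.086 each. The part of choroid plexus tissue in the Ttr value was not tested. Alb differed by 0.10 log2 (technical SD 0.076).

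The partners and coregulators of the nuclear receptors were close to even apart from the coregulator gene Ncoa2. The retinoid X receptor genes Rxra, Rxrb and Rxrg, which encode the partners of thyroid hormone receptors on DNA, differed by 0.072, -0.042 and 0.036 log2. Of 10 coregulators, 5 were higher in each pool, with a median of 0.0098 log2. Ncoa2, a coactivator, was 1.56-fold higher in females, from a spot in the uneven rows. It was the 1 coregulator of 10 at least 1.5-fold apart, or 10%, beside 2.4% of all measured genes. Med1, a Mediator subunit, differed by 0.18 log2 and the coactivator gene Ncoa3 by 0.070.

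Genes known to respond to thyroid hormone in brain or other tissues showed no 1.5-fold difference in the 10 measured, 7 being higher in females and 3 in males, with a median of 0.047 log2. Thrsp, a regulator of lipid synthesis, was at -1.27 in males and -1.60 in females, a difference of -0.32 log2. Klf9, which encodes a transcription factor induced by triiodothyronine, was at 0.79 in males and 1.09 in females, from a spot in the uneven rows. Hr, which encodes a corepressor, differed by 0.18 log2. The 2 largest of these differences had opposite signs.

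Fate genes and inputs of Trh neurons were measured for 9 of 9, none 1.5-fold apart, with a median of 0.019 log2. Pou3f2, a transcription factor of paraventricular neurons, was at -2.81 in males and -2.35 in females, a difference of 0.46 log2 (technical SD 0.076). Mc4r, the melanocortin receptor through which feeding signals reach these neurons, differed by 0.28 log2, from a spot in the uneven rows. Nr3c1, the glucocorticoid receptor gene, differed by -0.20 log2 over 2 probes. Hypothalamic identity was checked on a list of 10 neuron markers, all well above background in both pools. Their summed signals were 183 and 184 times the 75th percentile in males and females, most of it from Pmch, Avp and Oxt. Of the 10, 6 were higher in females and 4 higher in males, from -0.30 log2 for Agrp to 0.15 for Sim1. The Sim1 value is the mean of 2 probes, at -0.14 and 0.44 log2, with every spot in the uneven rows. The near-equal sums therefore do not show that each marker was even.

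The differences of the members were recomputed under other ways of processing the same spots. Under a normexp background correction fitted on all spots Trhr turned to -0.42 log2. Under the other 11 alternatives that gave it a value, Trhr ran from 0.72 to 0.84 log2, past 1.5-fold in each. Not all of these could differ from the reported value, since each measured member had 1 unflagged spot. Keeping outlier spots, the brightest probe, the median over spots and no filter on dim probes could only return 0.79 log2 for Trhr. The deposited value table holds the same signal on another scale. Over the alternatives other than that normexp correction Trh ran from -0.18 to -0.086, Thra from -0.24 to -0.13, Dio2 from 0.14 to 0.26 and Crym from 0.0089 to 0.099 log2. With the uneven rows left out, Trh, Trhr and Dio2 had no spot, and 0 of the remaining 2 measured members were 1.5-fold apart.

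**Figure D5:**
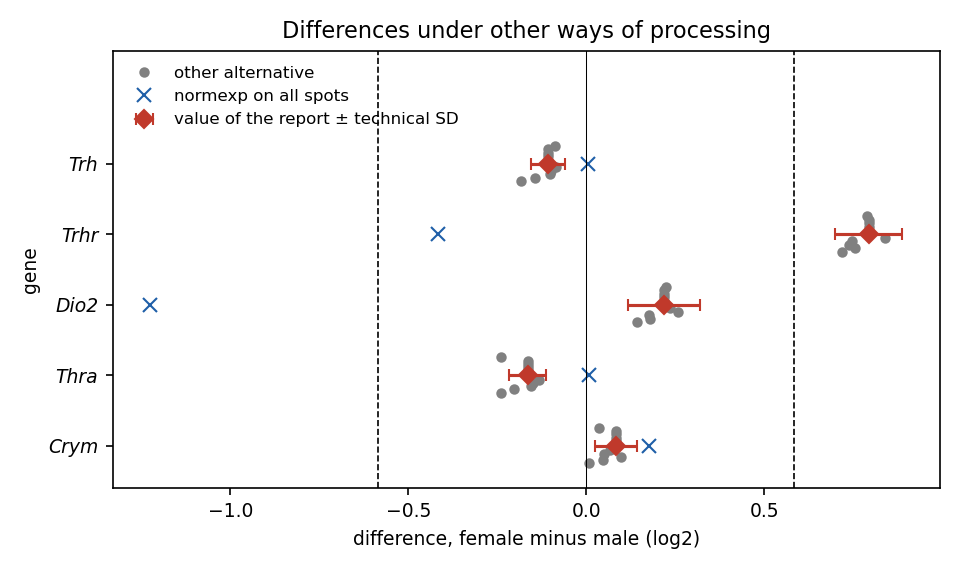
Difference, female minus male (log2), of the 5 measured members, as reported (diamonds, with the technical SD), under a normexp correction fitted on all spots (crosses) and under the other alternatives (grey points), with dashed lines at 1.5-fold. Grey points stay on the side of the diamonds, while the cross of Trhr lies at -0.42.

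For the series as a whole, 84.9% of spots other than controls were well above background in males and 84.2% in females, 0 spots were saturated, and the 75th percentile of the intensity was 3769 and 2943. Of the measured genes, 322 were at least 1.5-fold higher in females and 174 in males, a split that became 245 and 240 with spike-in scaling. The 8 meningeal markers were all higher in females, with summed signals of 1.74 and 3.56 times the 75th percentile in males and females, and the 5 blood markers were all lower, with 26.7 and 22.8 times. The part of tissue makeup in the members' differences was not tested.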

How the data were processed

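RNA of 1 male and 1 female pool was measured on 1 Agilent 1-colour array each, on 44254 spots. The deposited scanner files give the processed intensity of each spot, after background subtraction with spatial and multiplicative detrending by Agilent Feature Extraction 10.7.3.1 per the file headers; the submitters' processing notes name version 9.1. The deposited value table gives a signal that equals the processed intensity divided by the array's 75th percentile, times 100, on a linear scale without centring; its medians are 29.0 and 29.5. Other deposited per-spot columns are flags.

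Outlier spots were left out, spots of a probe and measured probes of a gene were averaged, and a probe needed a well-above-background flag on more than 50% of its spots in each pool to be measured. Of 30367 probes, 18750 were named through RefSeq accessions (GRCr8 table, names only) and the rest kept their deposited name. Technical SD came from 12682 repeated spots of 1310 probes in 20 level groups. Normexp and quantile normalization used limma 3.58.1 in R 4.3.3, and the rest Python 3.11.15. The calculation was tested on simulated data. The number of arrays limits the precision.

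The members, the gene lists and 11 of the alternatives were chosen with earlier results of these data known; 2 more were added after seeing the values. The genes named were the members, up to 3 others per list group with the largest absolute difference, and any past 1.5-fold; 1 gene that this rule names is not reported here. Genes of like pattern were not sought, since a pattern over 2 arrays is 1 difference.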

Additional observations from a re-analysis of the deposited data

How the results depend on the processing

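A normexp correction with an offset of 50, fitted on all spots, turned the Trhr difference to -0.42 log2 and moved Trh to 0.0048, Dio2 to -1.22, Thra to 0.0068 and Crym to 0.18, with 25 genes of the thyroid axis list at least 1.5-fold apart in place of 8; Dio2 was then the 1 member past 1.5-fold. It put the background of the male array at -595 and of the female array at 0.622 intensity units, and 10138 of 20677 genes came out 1.5-fold apart, against 496 as reported. The lowest spot of the male array had a signal minus local background of -19745. Without the 10 spots dimmer than their local background, an alternative chosen after seeing the data, the normexp correction put the background of the male array at 0.415 and gave differences of -0.099 for Trh, 0.75 for Trhr, 0.26 for Dio2, -0.15 for Thra and 0.050 log2 for Crym, with 216 genes 1.5-fold apart over all genes. Spike-in scaling moved Trh to -0.18, Thra to -0.24 and Crym to 0.0089 log2, and shifted the median of all genes to -0.075. Subtracting the median difference of neighbouring spots, also chosen after seeing the data, moved Thra to -0.24. With no filter on dim probes the count over all genes was 2079 of 26346, or 7.89%. With the uneven rows left out it was 277 of 16362, or 1.69%, beside 2.4% as reported. With the uneven rows left out, 0 members and 1 gene of the list (Tshb) were 1.5-fold apart. The remaining alternatives (median scaling, quantile normalization, no spatial detrend, outlier spots kept, brightest probe, median over spots, deposited value table, no filter on dim probes) moved no member by its technical SD. Each measured member had 1 unflagged spot. Keeping outlier spots, the brightest probe, the median over spots and no filter on dim probes could therefore not move it. Thrb was well above background in neither pool, so no difference is given for it under any alternative. No paired analysis was possible because each sex was 1 pool on 1 array.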
